A study of Mus musculus with 4 samples.

Results

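The cells described here were aortic smooth muscle cells that carried the cardiac troponin T transcript Tnnt2 and no detected Igfbp2 transcript after infusion of angiotensin II (AngII), the vasoconstrictor peptide of the renin-angiotensin system. They were taken from the library labelled SHF_AngII, where SHF is taken as the second heart field named in the study's design, an embryonic source of the outflow tract and of part of the ascending aortic wall. A barcode was kept when 500 or more genes were detected and mitochondrial transcripts were 10% or less of its UMIs (unique molecular identifiers, each a captured transcript). Smooth muscle cells were those with at least 5 UMIs of Myh11 and none of Pdgfra, Ptprc or Pecam1. Among these 4523 cells, 884 had at least 1 UMI of Tnnt2, none of Igfbp2 and fewer than 5 of Spp1, out of 31676 barcodes in the files used. The cells were chosen by these measured UMIs, so the levels of the rule genes, and all contrasts between the classes they define, are descriptions with no test. The 884 cells are called Tnnt2+ Igfbp2- cells below, and the remaining 3639 are called the other smooth muscle cells.

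All libraries came from aortas (ascending, per the study's title) of male Mef2c-mTmG mice. The mTmG allele is a membrane fluorescence reporter that switches colour after Cre recombination, and the labels name neither the Cre nor the age. Live single cells were sorted by lineage signal and captured with the 10x Chromium 3' v3 chemistry. The groups used were SHF_Baseline, with no infusion, and SHF_AngII, after 3 days of AngII, with CNC_AngII (cells sorted from the same strain under a label that is not spelled out, 3 days of AngII) beside them. Each group was 1 library, and the number of mice behind it was not given, so no value has a replicate check and no test between conditions was made.

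Troponin T anchors the troponin complex to tropomyosin on the thin filament of striated muscle, where calcium binding to troponin permits contraction. Smooth muscle contracts through phosphorylation of the myosin light chain and does not need troponin. Desmin (Des) is the intermediate filament of muscle cells, and telethonin (Tcap) caps titin at the Z-disc of the striated sarcomere. Igfbp2 encodes a secreted protein that binds insulin-like growth factors, and Spp1 encodes osteopontin, a matrix protein of activated smooth muscle cells.

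In the GENCODE annotation of mouse build GRCm38, Tnnt2 lies on chromosome 1 at 135836354 to 135852260 (plus strand), Des on chromosome 1 at 75360329 to 75368579 (plus strand), and Tcap on chromosome 11 at 98383811 to 98384953 (plus strand). No exon of another gene overlapped these 3 genes on the same strand. The 250 bases before a RefSeq start site of Tnnt2, a gene of the gate, and of Des, a muscle gene described beside it, are shown. They are RefSeq sequences of build GRCm38.p6, at chr1:135836084-135836333 and chr1:75360042-75360291, printed 5′ to 3′ on the plus strand. The RefSeq start sites differ from the GENCODE gene starts given above, and RefSeq lists another Tnnt2 start site, whose window is not printed. Capitals mark 2 motifs searched on both strands, the M-CAT motif CATTCC (bound by TEAD factors) and the E-box CANNTG (bound by basic helix-loop-helix factors).
Tnnt2: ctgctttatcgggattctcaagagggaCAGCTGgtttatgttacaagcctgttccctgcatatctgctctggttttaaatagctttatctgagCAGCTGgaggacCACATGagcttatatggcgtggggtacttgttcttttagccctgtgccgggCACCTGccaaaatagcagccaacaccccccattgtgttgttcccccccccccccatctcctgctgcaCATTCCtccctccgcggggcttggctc
Des: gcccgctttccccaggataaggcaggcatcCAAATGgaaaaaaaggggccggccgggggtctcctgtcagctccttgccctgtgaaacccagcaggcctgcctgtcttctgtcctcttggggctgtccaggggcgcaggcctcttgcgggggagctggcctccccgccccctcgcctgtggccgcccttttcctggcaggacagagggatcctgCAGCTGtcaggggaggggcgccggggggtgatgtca
The printed Tnnt2 window held 1 M-CAT match, which began 27 bases before its RefSeq start site, and 4 E-boxes. The window of the other Tnnt2 start site, at chr1:135836739-135836988, held no M-CAT match and 1 E-box. The Des window held 2 E-boxes and no M-CAT match. Over 32851 RefSeq promoter windows of the same length, 12.6% held an M-CAT match and 66.2% held an E-box. The CArG box bound by serum response factor was not found in any of these 3 windows and was found in 1.47% of all windows. These matches describe the letters only.

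In SHF_AngII, 57.3% of gated smooth muscle cells had a Tnnt2 UMI (95% exact binomial interval 55.9 to 58.8%) and 68.3% had an Igfbp2 UMI (66.9 to 69.6%). In SHF_Baseline these shares were 69.0% (67.0 to 71.0%) for Tnnt2 and 23.9% (22.1 to 25.8%) for Igfbp2. The Tnnt2+ Igfbp2- cells were therefore 19.5% (18.4 to 20.7%) of the smooth muscle cells of SHF_AngII and 52.3% (50.2 to 54.5%, 1094 of 2090 cells) of those of SHF_Baseline. In CNC_AngII they were 3.61% (3.16 to 4.10%, 224 of 6207 cells). These intervals cover only counting error over the cells of each library, not differences between mice. They are no test between conditions, and the shares follow from the Tnnt2 and Igfbp2 UMIs of the gate itself. Cells with at least 5 Spp1 UMIs numbered 150 in SHF_AngII and 0 of 2090 in SHF_Baseline, with an exact upper limit of 0.176%.

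Within SHF_AngII, Igfbp2 was detected in 64.9% of the cells with a Tnnt2 UMI and in 72.7% of those without one. At baseline it was detected in 24.2% and 23.2%. The 2 libraries thus lay further apart in the Igfbp2 step of the gate than in the Tnnt2 step. The Tnnt2+ Igfbp2- cells of SHF_AngII were also shallower, with a median of 9917.5 UMIs against 14266 in the other smooth muscle cells. At baseline the medians were 12228 and 12753. When each cell was thinned to 3000 UMIs before gating, the share was 22.4% in SHF_AngII and 42.4% in SHF_Baseline.

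**Figure D1:**
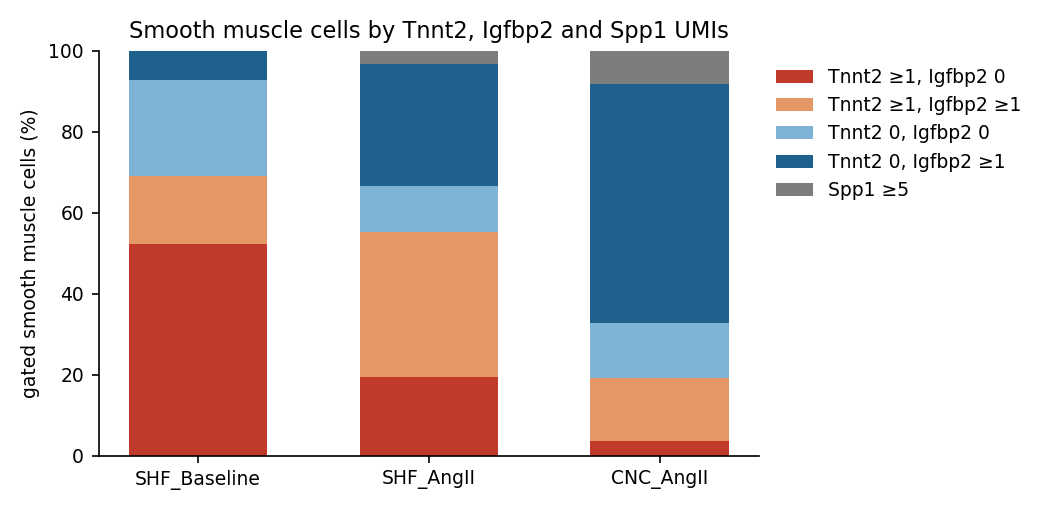
Percentage of gated smooth muscle cells (vertical axis) in 5 classes of Tnnt2, Igfbp2 and Spp1 UMIs, 1 bar for each of 3 libraries. The Tnnt2+ Igfbp2- class makes up 52.3% of SHF_Baseline, 19.5% of SHF_AngII and 3.61% of CNC_AngII.

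The label of smooth muscle was checked against markers. Beside Myh11, 6 smooth muscle markers summed to 64616 CPM (the summed UMIs of a gene, scaled by the summed UMIs of the class) in the Tnnt2+ Igfbp2- cells, 69212 in the other smooth muscle cells and 4393 in fibroblasts (Pdgfra+ Myh11- cells). Of 8 cardiomyocyte markers, 2 were at 0. Myh6 and Nppa had no UMI in 884 cells, which allows up to 0.339% of cells with one (taken as 3 over the number of cells). The whole list summed to 56.7 CPM against 35.2 CPM in the other smooth muscle cells. Macrophage markers summed to 1.97 CPM (C1qa, Csf1r and Adgre1 at 0), and endothelial (Vwf at 0), Schwann and erythroid markers summed to less. Mesothelial markers summed to 8.29 CPM against 3.51 CPM in the others, and pericyte markers to 347 CPM (Vtn at 0) against 391 CPM. The Scrublet caller marked 9 of the 884 cells as doublets. Of their barcodes, 2 also occurred in SHF_Baseline and 3 in CNC_AngII.

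Fibroblast markers were detected at higher levels. The 6 fibroblast markers outside the gate summed to 2311 CPM in the Tnnt2+ Igfbp2- cells (0 to 39620 CPM over cells, median 1306), 1901 CPM in the other smooth muscle cells (0 to 36011, median 1558) and 15030 CPM in fibroblasts. None of the 6 was at 0. In SHF_AngII, 63.8% of the Tnnt2+ Igfbp2- cells and 84.5% of the others had at least 10 UMIs of these 6 markers together. The order was the reverse for the set of Dcn, Lum, Fbln1 and Dpt. Of this set, Dcn, Lum and Fbln1 were also among the highest genes of the same contrast. Cells with at least 10 UMIs of Dcn, Lum, Fbln1 and Dpt together made up 16.5% (14.1 to 19.1%) of the Tnnt2+ Igfbp2- cells and 5.55% (4.83 to 6.35%) of the others. At baseline they were 15.4% and 10.4%. Results with and without these cells are given below.

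Tnnt2 chose the cells, so its values are a description. The Tnnt2 level was 1383 CPM in the Tnnt2+ Igfbp2- cells of SHF_AngII (exact Poisson interval 1360 to 1406), with a median of 6 UMIs per cell, a 90th percentile of 42.7 and a highest value of 221. In the same gate it was 1157 CPM at baseline and 412 CPM in CNC_AngII. The cells that carried both Tnnt2 and Igfbp2 in SHF_AngII had 664 CPM, lower than the Tnnt2+ Igfbp2- cells. In fibroblasts of SHF_AngII, 19.7% of cells had a Tnnt2 UMI at a median depth of 15108 UMIs, and the level was 62.4 CPM. Within the gate, 151 of the 884 cells had a single Tnnt2 UMI, and 223 cells (25.2%) had 20 or more. The level of the former, 82.1 CPM, is set by that choice and by depth. The fibroblast level averages cells with and without a Tnnt2 UMI, so these levels are not compared.

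At the edges of the gate, the 151 cells with 1 Tnnt2 UMI had 195 CPM of Tcap and 567 CPM of Fn1, and the 511 cells just outside, with neither Tnnt2 nor Igfbp2, had 108 and 641 CPM. The 222 Tnnt2+ cells with exactly 1 Igfbp2 UMI had 158 CPM of Tcap, 552 CPM of Fn1 and 261 CPM of Apoe, against 300, 403 and 479 CPM inside.

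Tcap differed more between the classes than Des. Its level was 300 CPM (290 to 311) in the Tnnt2+ Igfbp2- cells of SHF_AngII, 108 CPM in cells with neither Tnnt2 nor Igfbp2, 87.4 CPM in cells with both and 47.7 CPM in cells with Igfbp2 only. At baseline the same 4 classes had 114, 97.2, 56.4 and 43.6 CPM, in the same order but closer together. In CNC_AngII the gate had 190 CPM (174 to 208) and its other smooth muscle cells 72.1 CPM. A Tcap UMI was found in 54.5% of the Tnnt2+ Igfbp2- cells and 1.28% of fibroblasts. Within the gate, 402 cells had no Tcap UMI, 215 had 1 or 2, 171 had 3 to 9 and 96 had 10 or more (10.9%, 8.89 to 13.1%). At baseline 26 of 1094 cells had 10 or more (2.38%, 1.56 to 3.46%). The log2 ratio of the Tnnt2+ Igfbp2- cells to the others was 2.04 (interval 1.99 to 2.12). It was 2.07 without the cells of 10 or more fibroblast UMIs, and 1.37 among cells of 8000 to 12000 UMIs.

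Des did not follow Tcap. Its level was 755 CPM (738 to 772) in the Tnnt2+ Igfbp2- cells, 811 CPM in cells with both Tnnt2 and Igfbp2, 569 CPM in cells with Igfbp2 only and 472 CPM in cells with neither. At baseline the values were 624, 625, 368 and 310 CPM. The 2 classes with Tnnt2 were thus the high ones in both libraries, whether or not Igfbp2 was detected. Against all other smooth muscle cells the log2 ratio was 0.22, under the 1.5-fold limit, and it ranged from -0.33 with a 5% mitochondrial cap to 0.55 among cells of 8000 to 12000 UMIs. In CNC_AngII, Des was 155 CPM in the gate and 88.5 CPM outside it.

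**Figure D2:**
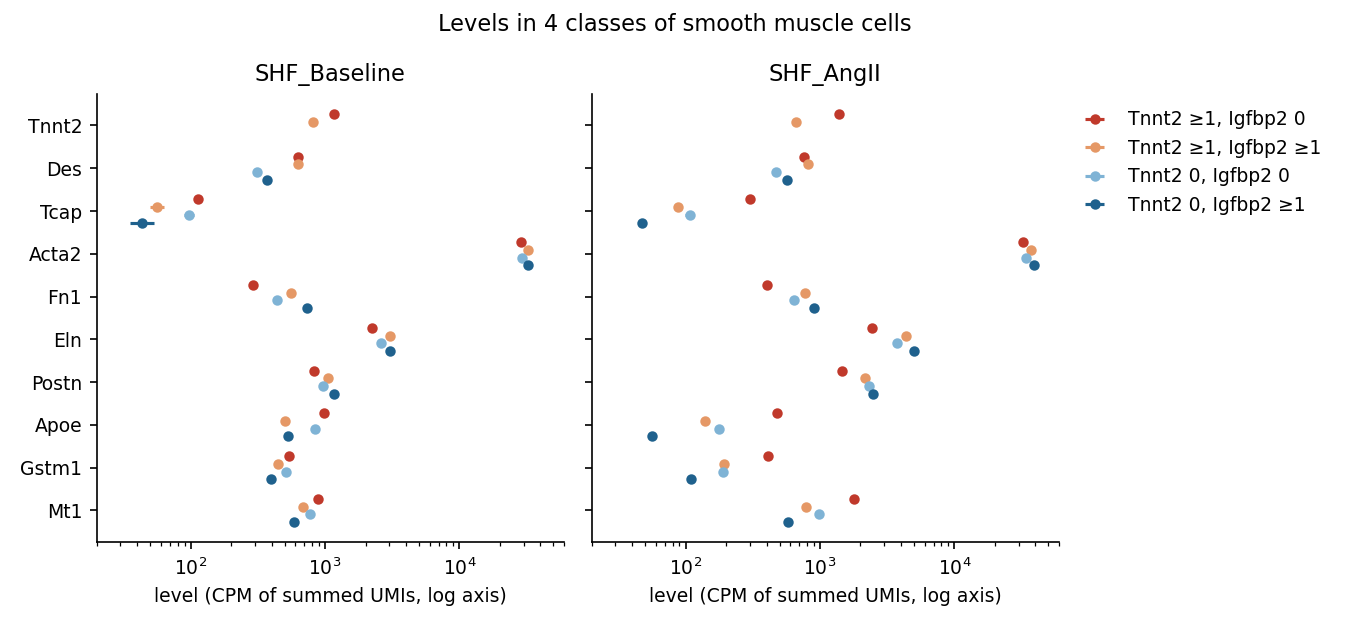
Levels of 10 genes in CPM of summed UMIs (horizontal log axis) in 4 classes of smooth muscle cells of SHF_Baseline (left) and SHF_AngII (right), with exact Poisson intervals that are mostly narrower than the points; classes with no Tnnt2 UMI have no Tnnt2 point. Tcap of the Tnnt2+ Igfbp2- cells stands at 300 CPM in SHF_AngII and 114 CPM in SHF_Baseline.

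Most other sarcomere genes were not higher together with Tnnt2. Of 59 genes of a striated muscle list, 58 were in the files and 14 passed the minimum level beside Tnnt2 (mean of 50 CPM over the classes compared). Tcap was 1.5-fold or more higher than in the other smooth muscle cells, and 2 genes were that much lower: Ankrd1, a stretch-responsive titin-binding protein, at 41.9 against 75.9 CPM (log2 ratio -0.84) but 40.7 CPM in cells with neither Tnnt2 nor Igfbp2, and the actin cross-linker Flnc at 104 against 158 CPM (-0.61). Over all 2373 genes that passed, 2.15% were 1.5-fold higher and 1.52% lower, and since this contrast holds the rule nothing is read from the shares. The median log2 ratio of the list was -0.17, beside 0.00 over all genes. The cardiac actin Actc1 was at 10.8 CPM against 2.28 CPM, from UMIs in 2.15% of the cells, with up to 46 in 1 cell. The Z-disc protein Pdlim3 (513 against 403 CPM) and the small heat shock protein Cryab (762 against 968 CPM) were within 1.5-fold.

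The contractile genes of smooth muscle lay within 1.5-fold between the 2 kinds of cells. All 25 genes of that list passed the minimum and none was 1.5-fold higher or lower, with a median log2 ratio of 0.02. Acta2, smooth muscle actin, was 32142 against 36570 CPM, Tagln 23022 against 23394 CPM, calponin (Cnn1) 1679 against 2016 CPM and leiomodin (Lmod1) 725 against 585 CPM. The 33 genes of calcium and potassium handling gave 10 that passed, none past 1.5-fold, and a median of 0.00. Of 33 respiratory chain genes, 32 passed, none past 1.5-fold, with a median of 0.01.

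Over all genes, 51 were at least 1.5-fold higher and 36 at least 1.5-fold lower in the Tnnt2+ Igfbp2- cells than in the other smooth muscle cells of SHF_AngII. With TMM scaling the counts were 38 and 50. Among cells of 8000 to 12000 UMIs they were 29 and 27. In SHF_Baseline the same contrast gave 9 genes in each direction (0.37% of 2433 each way), and in CNC_AngII 16 higher (0.678%) and 10 lower (0.424%) of 2360. The other smooth muscle cells at baseline hold fewer Igfbp2 cells, so these contrasts do not compare the same mixtures. Against the cells with neither Tnnt2 nor Igfbp2, 39 genes were higher (1.65%) and 22 lower (0.93%), and against those with both, 40 were higher (1.68%) and 18 lower (0.756%).

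The 12 highest genes beyond Tnnt2 and the other rule genes were higher than in each of these 2 classes of SHF_AngII as well. Apoe, the apolipoprotein that carries lipid out of cells, was 479 CPM in the Tnnt2+ Igfbp2- cells and 107 CPM in the others of SHF_AngII, against 987 and 654 CPM at baseline (log2 ratios 2.16 and 0.59). The glutathione transferase Gstm1 was 411 against 154 CPM, with 539 and 468 CPM at baseline. The metal-binding metallothionein Mt1 was 1783 against 725 CPM, with 886 and 709 CPM at baseline. Itih4, an inter-alpha-trypsin inhibitor chain, was 222 against 80.2 CPM, and the fibroblast level of 2.55 CPM was far below both. Fibroblasts of SHF_AngII had 722 CPM of Apoe and 2975 CPM of Mt1, above both kinds of smooth muscle cells, and 127 CPM of Gstm1, below both. For all 4 genes the 2 kinds of smooth muscle cells lay further apart in SHF_AngII than at baseline. The genes were chosen by their ratio in SHF_AngII, which favours a larger value there. The other smooth muscle cells are also a different mixture at baseline, so nothing is read from this difference.

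Other genes among the highest were extracellular matrix genes that fibroblasts express strongly. Lum, a collagen-binding proteoglycan, was 255 against 43.6 CPM, with 1380 CPM in fibroblasts. Dcn, its relative decorin, was 539 against 129 CPM, with 5809 CPM in fibroblasts. The fibulin Fbln1 was 92.9 against 19.5 CPM, Abi3bp 98.9 against 26.9 CPM, Serpinf1 (pigment epithelium-derived factor) 139 against 55.7 CPM and the fibril-associated collagen Col14a1 103 against 42.2 CPM. Without the cells of 10 or more fibroblast UMIs, the log2 ratio was 1.22 in place of 2.52 for Lum, 1.08 in place of 2.05 for Dcn and 1.74 in place of 2.20 for Fbln1, while Apoe was at 1.98 in place of 2.16 and Gstm1 at 1.46 in place of 1.41. Among cells of 8000 to 12000 UMIs, Apoe was at 1.5, Gstm1 at 0.86 and Col14a1 at 0.58. The part of fibroblast transcripts in the values that remain was not tested.

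The 12 lowest genes included several matrix genes. Elastin (Eln), the rubber-like fibre of the aortic wall, was 2454 CPM (94.5% of cells with a UMI) against 4719 CPM in the others, with 2237 and 2863 CPM at baseline. Fibronectin (Fn1) was 403 against 844 CPM, with 291 and 534 CPM at baseline. Their log2 ratios in SHF_AngII were -0.94 and -1.07. The ligand Tgfb2 was 101 against 188 CPM (-0.89). Another 8 were the folding enzyme Fkbp11 (-0.99), the fibulin Fbln2 (-0.98), the TGF-beta co-receptor Cd109 (-0.91), annexin Anxa3 (-0.88), Ankrd1 (-0.84), the basement membrane collagen Col15a1 (-0.84), the tendon transcription factor Scx (-0.83) and galectin Lgals3 (-0.82). Against the cells with neither Tnnt2 nor Igfbp2, 11 of the 12 were lower, 10 of them past 1.5-fold, and Ankrd1 was at 0.04. Against those with both, 12 were lower, 9 of them past 1.5-fold. All 12 were also below 0 in SHF_Baseline and in CNC_AngII, with 6 and 5 of them past 1.5-fold. Of the 12 highest, 10 were above 0 at baseline and all 12 in CNC_AngII, 5 and 12 of them past 1.5-fold.

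**Figure D3:**
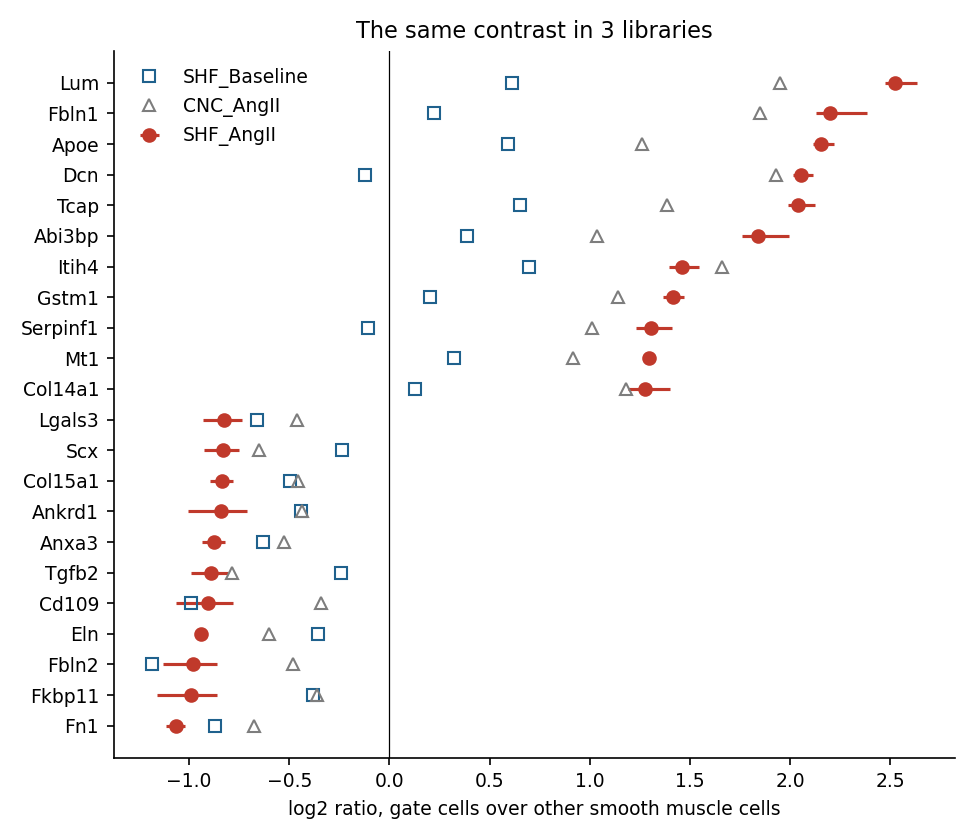
Log2 ratio of gate cells to the other smooth muscle cells (horizontal axis) for 11 of the 12 highest and 11 of the 12 lowest genes of SHF_AngII, with the same ratio in SHF_Baseline and CNC_AngII; bars are 95% counting intervals for SHF_AngII. The largest SHF_AngII ratio is 2.52 for Lum, and the baseline values lie closer to 0 than the SHF_AngII values for all genes shown except Fbln2 and Cd109. The genes were chosen by their SHF_AngII ratio, which favours larger values in that library.

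Over all 2373 genes, 2.15% were 1.5-fold or more higher and 1.52% lower. Of 53 extracellular matrix genes, 43 passed the minimum, 7 were 1.5-fold or more higher and 9 lower, and the median log2 ratio was -0.23. Those higher were Lum, Dcn, Fbln1, Col14a1, the proteoglycans Ogn (298 against 142 CPM) and Prelp (195 against 110 CPM), and the latent TGF-beta binding protein Ltbp4 (210 against 120 CPM). Beside those named, the lower genes were periostin (Postn, 1449 against 2334 CPM), the collagen cross-linker Lox (259 against 402 CPM), aggrecan (Acan, 50.8 against 88.9 CPM), Ccn2 (2029 against 3217 CPM) and Col5a2 (298 against 467 CPM). Fibrillar collagens Col1a1 (918 against 1170 CPM) and Col3a1 (1344 against 1479 CPM) were within 1.5-fold.

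The counts below stand beside 2.15% higher and 1.52% lower over all 2373 genes, and nothing is read from these shares. Among 16 TGF-beta pathway genes that passed, of 33 listed, 2 were 1.5-fold or more lower, among them Tgfb2, and none was higher, with a median of -0.09. Of 9 lineage transcription factors that passed, of 43 listed, 2 were higher: Meis2 (82.8 against 52.3 CPM) and the Notch target Heyl (70.8 against 41.6 CPM). Foxs1 was lower (49.9 against 77.0 CPM), and the median was 0.25. The second heart field factor Mef2c was 136 against 106 CPM, and Gata6 110 against 87.8 CPM. Of 19 immediate early genes that passed, Socs3 was higher (170 against 104 CPM), 16 were above 0 and the median was 0.20. Of 13 heat shock genes, the chaperones Hspa1a (207 against 122 CPM) and Hspa1b (101 against 66.6 CPM) were higher, and Hspb1 (2398 against 2354 CPM) was within 1.5-fold. None of 14 genes of the unfolded protein response was past 1.5-fold, with a median of -0.25.

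The Tnnt2+ Igfbp2- cells were not uniform, and several genes followed the number of Tnnt2 UMIs. In SHF_AngII the cells with 1, 2 to 4, 5 to 9, 10 to 19 and 20 or more Tnnt2 UMIs had median depths between 9514 and 10689 UMIs. Tcap was 195, 228, 283, 357 and 418 CPM in these classes, and at baseline 92.8, 125, 112, 112 and 122 CPM. Apoe was 185, 366, 441, 510 and 794 CPM, and at baseline 551, 625, 850, 1021 and 1701 CPM. The order along Tnnt2 was thus seen for Apoe in both libraries and for Tcap in the AngII library. Ceruloplasmin (Cp), a copper-carrying ferroxidase, went from 16.8 to 131 CPM in SHF_AngII and from 14.0 to 83.8 CPM at baseline. The oxygenase Fmo2 went from 808 to 1586 CPM in SHF_AngII and from 635 to 806 CPM at baseline.

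Fn1, Postn and Eln ran the other way. Fn1 was 567, 477, 461, 283 and 249 CPM from the lowest to the highest Tnnt2 class of SHF_AngII, and 377, 361, 284, 248 and 206 CPM at baseline. Postn was 2198, 1673, 1357, 1272 and 897 CPM in SHF_AngII and 1042 to 616 CPM at baseline. Eln was 3124 CPM in the lowest and 1963 CPM in the highest class, with 2638 and 1790 CPM at baseline. Other matrix genes were higher in cells with more Tnnt2. Between the cells with 10 or more and with 1 Tnnt2 UMI, Lum was 358 against 172 CPM (log2 ratio 1.05) in SHF_AngII and 182 against 54.7 CPM (1.72) at baseline. Abi3bp (1.19) and Mgp (0.63) were higher in SHF_AngII, and Fbln1 (2.01) and Dcn (1.07) at baseline. Myh11 showed no order, between 1861 and 2194 CPM in SHF_AngII. These classes are cut from a count and are ranges, not cell types, and 305 of the 884 cells had 5 to 19 UMIs.

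**Figure D4:**
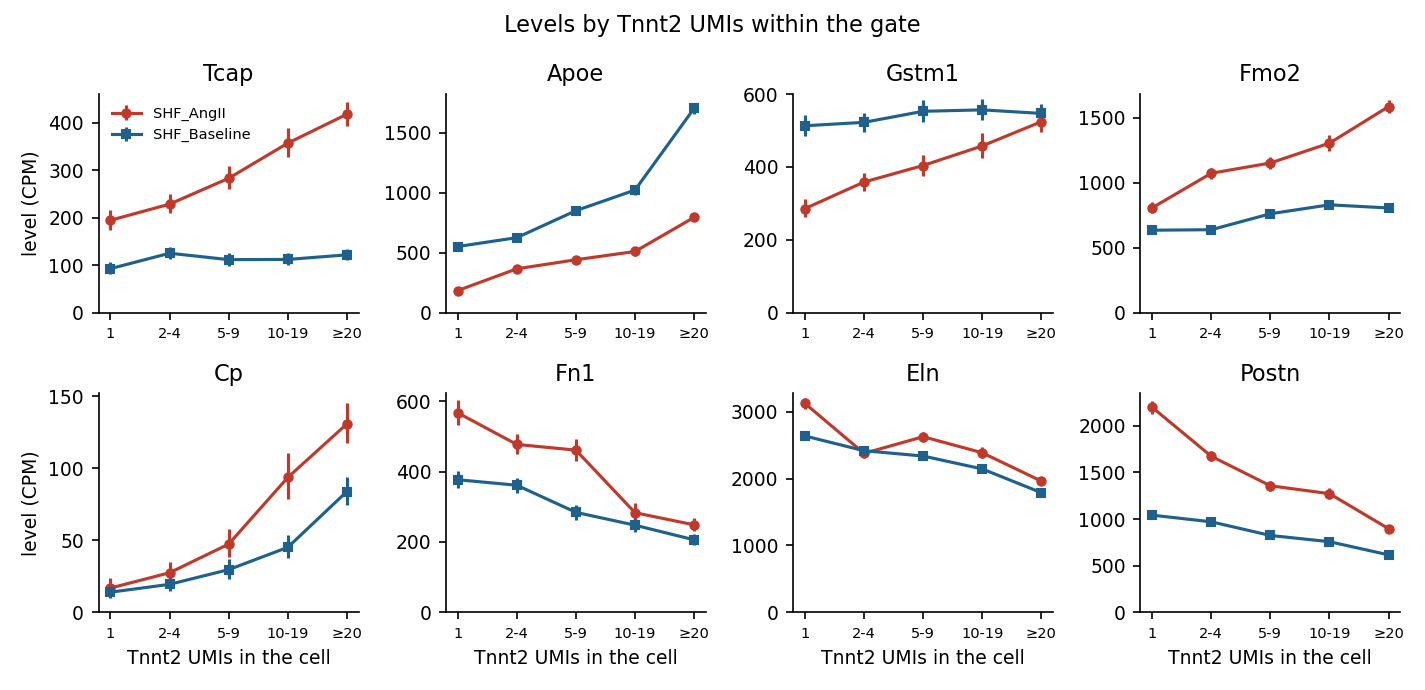
Levels of 8 genes in CPM (vertical axes, from 0) in Tnnt2+ Igfbp2- cells split by their Tnnt2 UMIs (horizontal axes), for SHF_AngII and SHF_Baseline, with 95% Poisson intervals. Tcap goes from 195 to 418 CPM in SHF_AngII and stays between 92.8 and 125 CPM at baseline.

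The cells also differed by their Des UMIs, partly in the same genes as by Tnnt2. In SHF_AngII 364 of the 884 cells had no Des UMI and 366 had at least 5, at median depths of 9506 and 10552 UMIs. Over 2380 genes, the highest in the Des-rich cells were Psd (96.8 against 41.2 CPM), Fbln1 (106 against 46.4 CPM) and enteric smooth muscle actin Actg2 (728 against 340 CPM). Retinol-binding protein Rbp4 was lowest (141 against 336 CPM), followed by Igf1 (33.0 against 72.0 CPM), and matrix Gla protein Mgp, an inhibitor of calcification, was 6994 against 12289 CPM. At baseline Actg2 was 456 against 260 CPM, Rbp4 142 against 300 CPM and Mgp 4431 against 5732 CPM. Several genes were higher along both Des and Tnnt2 in SHF_AngII, with log2 ratios of 1.21 and 1.80 for Psd, 0.86 and 1.87 for Art3, 0.66 and 1.02 for Tcap and 0.60 and 1.05 for Lum. Tnnt2 itself was 1670 against 1098 CPM (0.60) in the Des-rich cells. Between the cells of SHF_AngII with 10 or more and with 1 Tnnt2 UMI, the log2 ratios were 0.15 for Rbp4 and 0.14 for Actg2 (-0.71 and 0.23 at baseline). Fn1, at -1.12 along Tnnt2, was at -0.08 along Des in SHF_AngII. At baseline Fn1 was lower along both, at -0.74 along Tnnt2 and -0.35 along Des.

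The comparison with the same gate of SHF_Baseline describes what stood apart in the AngII library. It includes every difference in the making of the 2 files, whose gene lists differ, and the gate took 19.5% of the smooth muscle cells in one library and 52.3% in the other. In the Tnnt2+ Igfbp2- cells, 53 genes were at least 2-fold higher (2.2% of 2404) and 45 at least 2-fold lower (1.87%) in SHF_AngII. With TMM scaling they were 63 and 32. In the other smooth muscle cells of the same libraries, 83 were higher (3.45% of 2408) and 89 lower (3.7%). In the cells with neither Tnnt2 nor Igfbp2 the counts were 80 (3.34% of 2397) and 90 (3.75%), in those with both 63 (2.63% of 2399) and 67 (2.79%), and in fibroblasts 144 (5.5% of 2620) and 243 (9.27%). Against the same gate of CNC_AngII, 46 genes were 1.5-fold higher (1.92% of 2395) and 29 lower (1.21%) in SHF_AngII. The median absolute log2 ratio was 0.28 in the Tnnt2+ Igfbp2- cells and 0.32 in the other smooth muscle cells. These comparisons use separate cells of the same 2 libraries, and the differences between them were not tested.

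Named genes for this comparison were those whose fibroblast ratio was of opposite sign or less than 0.5 of the size. The highest was Fxyd5, a regulator of the sodium pump, at 29.1 CPM at baseline and 262 CPM in SHF_AngII (log2 ratio 3.13), and 3.21 in the other smooth muscle cells. Scx was 37.5 and 114 CPM (1.58, and 2.17 in the others). Tcap was 114 and 300 CPM (1.39, interval 1.31 to 1.49), and its ratio in the other smooth muscle cells was 0.00, at 72.1 and 72.3 CPM. Mt1 was 886 and 1783 CPM (1.01), against 0.03 in the others. The other smooth muscle cells are a different mixture of classes in each library. By class, Tcap was at 0.62 in the cells with both Tnnt2 and Igfbp2 (56.4 to 87.4 CPM) and at 0.15 in those with neither. Mt1 was at 0.19 in the cells with both and at 0.36 in those with neither. In the Tnnt2+ Igfbp2- cells, Tcap was at 0.75 with a 5% mitochondrial cap and at 1.90 after thinning.

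Lum (1.18), Serpinf1 (1.14), Serping1, the C1 inhibitor (1.10), and Pcolce, a procollagen processing enhancer (1.13), were also among the 12 highest, with -0.73, -0.28, 0.67 and 0.45 in the other smooth muscle cells. By class, they were 0.28, 0.36, 0.70 and 0.69 in the cells with both Tnnt2 and Igfbp2. In the cells with neither they were -0.62, -0.08, 0.80 and 0.54. Without the cells of 10 or more fibroblast UMIs, the ratios in the Tnnt2+ Igfbp2- cells were 1.03, 1.25, 1.19 and 0.68. With a 5% mitochondrial cap, which leaves 261 cells in SHF_AngII and 69 at baseline, Lum was at -0.07, Serpinf1 at 0.05, Serping1 at 0.20 and Pcolce at 0.48, and Pcolce was at 0.04 after thinning. The unnamed transcript 2210407C18Rik (1.47), the long RNA Gm26802 (1.18), the signal peptide peptidase H13 (1.11) and the phosphatase inhibitor Ppp1r14b (1.09) completed the 12. All 4 were also higher in the other smooth muscle cells, at 0.99, 0.67, 1.20 and 1.29. Exons of Fxyd5 and Pcolce overlap another gene on the same strand (Mir7050 and Fbxo24), so that their UMIs may be shared.

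The 12 lowest genes were lower in the other smooth muscle cells too. Smad6, an inhibitor of bone morphogenetic protein signalling, was 82.2 CPM at baseline and 28.7 CPM in SHF_AngII (-1.49, and -1.14 in the others). Ptprz1, a receptor phosphatase that binds pleiotrophin, was 209 and 84.3 CPM (-1.30 and -1.24). The nuclear receptor Nr4a2 was 131 and 53.9 CPM (-1.27 and -1.62), and the phosphate exporter Xpr1 120 and 59.0 CPM (-1.01 in both). The kinase Pim1 (-0.98), the secreted Scube3 (-0.93), the potassium channel subunit Kcnab1 (-0.90), the Wnt modulator Sfrp2 (-0.90), the linker histone Hist1h1c (-0.89), the retinal reductase Dhrs3 (-0.88), Nfkbiz (-0.88) and Klf6 (-0.86) were lower by less than 2-fold. In the others these 8 ranged from -1.75 for Sfrp2 to -0.57 for Dhrs3. Sfrp2 was at 0.45 with the 5% mitochondrial cap.

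**Figure D5:**
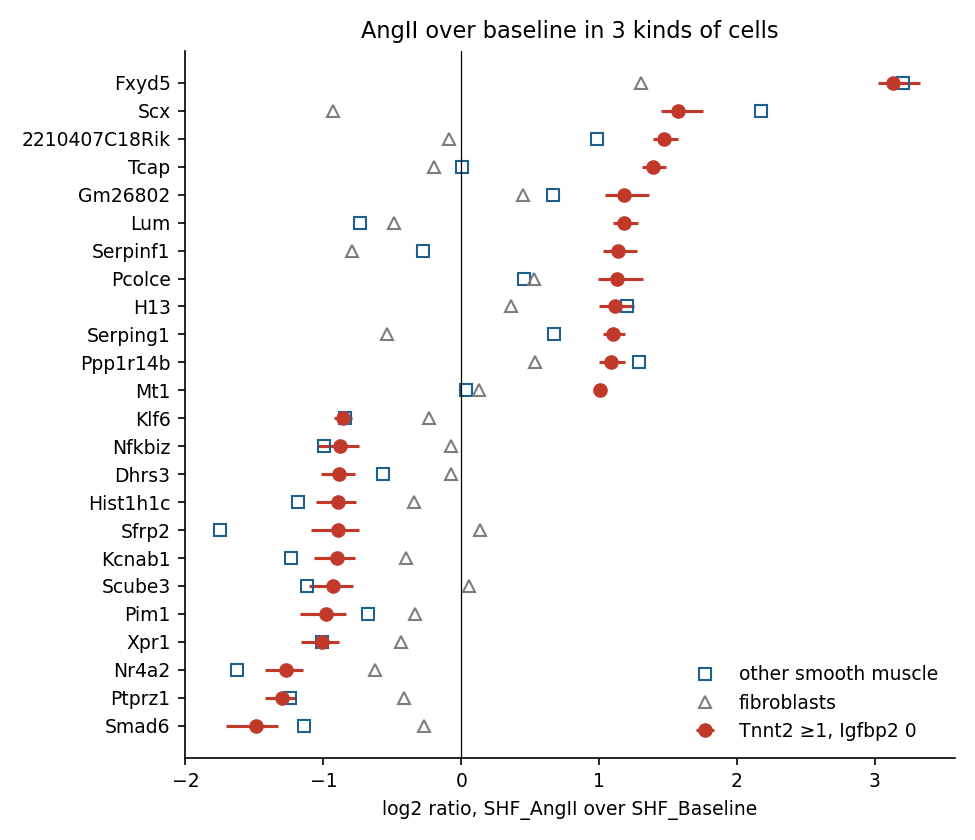
Log2 ratio of SHF_AngII to SHF_Baseline (horizontal axis) for the 12 highest and 12 lowest named genes in the Tnnt2+ Igfbp2- cells, with the same ratio in the other smooth muscle cells and in fibroblasts; bars are 95% counting intervals for the Tnnt2+ Igfbp2- cells. Tcap lies at 1.39 in these cells and at 0.00 in the other smooth muscle cells, whereas the 12 lowest genes are below 0 in both.

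By list, the levels in the 2 libraries stood as follows. Over all 2404 genes of the Tnnt2+ Igfbp2- cells, 2.2% were at least 2-fold higher and 1.87% lower. None of 24 contractile genes was 2-fold apart, with a median of -0.12 in the Tnnt2+ Igfbp2- cells and -0.09 in the others. Of 19 immediate early genes 4 were 2-fold lower, among them Egr1 (1773 CPM at baseline, 824 CPM in SHF_AngII) and Zfp36 (691 and 323 CPM). The median of these genes was -0.66, against -0.84 in the others, where 6 of 19 were 2-fold lower. In fibroblasts of the same libraries 9 of 20 were 2-fold lower, with a median of -0.92, beside 9.27% of all genes there. Of 40 extracellular matrix genes 3 were 2-fold higher and 2 lower. Timp1, an inhibitor of matrix proteases, was 20.9 and 212 CPM (3.28, and 3.38 in the others), and Ogn was 780 and 298 CPM (-1.39, and -2.23). Mgp was 5098 and 10355 CPM (1.02, and 0.52). Eln differed by 0.13 in the Tnnt2+ Igfbp2- cells, from 2237 to 2454 CPM, and by 0.72 in the others, from 2863 to 4719 CPM. In the former its direction depended on the setting. It was -0.55 after thinning, -0.51 among cells of 8000 to 12000 UMIs and 0.75 with a 5% mitochondrial cap. Of the striated list, 2 of 13 genes were 2-fold higher, Tcap and the small heat shock protein Hspb7 (253 and 584 CPM, 1.21), which was at 1.61 in the others.

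Apoe was lower in the AngII library, from 987 to 479 CPM in the Tnnt2+ Igfbp2- cells (-1.04) and from 654 to 107 CPM in the others (-2.60, with -2.23 in the cells with neither Tnnt2 nor Igfbp2 and -1.85 in those with both). In fibroblasts it was 4491 and 722 CPM. Gstm1 was at -0.39 in the Tnnt2+ Igfbp2- cells and -1.60 in the others. With a 5% mitochondrial cap the Apoe value in the Tnnt2+ Igfbp2- cells was -2.06. Postn and Acan were higher in both, with 0.80 and 1.31 in the Tnnt2+ Igfbp2- cells and 1.17 and 1.95 in the others. By class, Gstm1 was at -1.21 in the cells with both Tnnt2 and Igfbp2 and at -1.44 in those with neither. For Apoe, Gstm1, Postn and Acan the Tnnt2+ Igfbp2- cells lay nearer to their baseline level than the other smooth muscle cells did. This is a class chosen for the absence of Igfbp2, which was detected in more cells of the AngII library. Other genes lay further from baseline in the Tnnt2+ Igfbp2- cells, among them Tcap (1.39 against 0.00), Mt1 (1.01 against 0.03) and Serping1 (1.10 against 0.67).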

How the data were processed

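Single-cell RNA was measured in 3 libraries of 4 samples in the labels. The CNC_Baseline sample was not analysed here. The deposited files hold raw UMI counts per gene and barcode. fastp, STAR 2.5, HTSeq 0.6.1 and mm10 are named, without a role, in the submitters' processing notes. Library totals were 92474476 to 150954701 UMIs, and cells kept numbered 8579 to 10471 per library, with median depths of 10396 to 13459 UMIs. The AngII files list 32285 genes and the SHF_Baseline file 18760. After matching by name, or by a unique synonym for 519 genes, and leaving out 13 duplicate names, 18113 common genes were used.

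The members and all gene lists were chosen with earlier results of these data known. For each class of cells the UMIs of a gene were added up and scaled to CPM, and ratios are log2((CPM + 1)/(CPM + 1)), with 95% conditional binomial intervals computed without the pseudocount, which cover counting error only. Genes needed a mean of 50 CPM over the classes compared, and named genes also a UMI in 10% of the cells of the higher class. Mitochondrial and ribosomal protein genes were left out of the counts over all genes and of the named genes. The 7 rule genes were left out of the named genes and the list counts. Named genes are the 12 with the highest and the 12 with the lowest ratio in a comparison, for AngII against baseline only where the fibroblast ratio was of opposite sign or under 0.5 of the size, plus genes of the lists. A few of these genes are not reported here. Doublets were marked with Scrublet in scanpy 1.11.5 and kept. TMM factors came from edgeR 4.0.16. The 15 alternatives changed the gate, depth, doublets, scaling, pseudocount, gene minimum and free RNA. Scripts were tested on simulated data.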

Additional observations from a re-analysis of the deposited data

Results flagged for a closer look

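In 4 genes the ratio of SHF_AngII to SHF_Baseline had opposite directions in the Tnnt2+ Igfbp2- cells and in the other smooth muscle cells, and the difference was not tested. For Dcn the log2 ratio was 0.35 against -1.83, for Fbln1 0.76 against -1.22, for Lum 1.18 against -0.73 and for Serpinf1 1.14 against -0.28. The other smooth muscle cells are a different mixture of classes in each library. In the cells with both Tnnt2 and Igfbp2, Lum was at 0.28 and Serpinf1 at 0.36, the direction of the Tnnt2+ Igfbp2- cells. Dcn and Fbln1 were both at -0.82 there. In the cells with neither, Dcn was at -1.69, Fbln1 at -0.77, Lum at -0.62 and Serpinf1 at -0.08. All 4 are genes that fibroblasts of the same libraries express at higher levels, and their part in the result was not tested beyond the following value. Without the cells of 10 or more UMIs of Dcn, Lum, Fbln1 and Dpt, the ratios in the Tnnt2+ Igfbp2- cells were -0.25 for Dcn, 0.49 for Fbln1, 1.03 for Lum and 1.25 for Serpinf1. The opposite direction of Dcn was therefore not seen without those cells. With a 5% mitochondrial cap, which leaves 261 cells in SHF_AngII and 69 at baseline, the ratios were -0.82 for Dcn, -0.24 for Fbln1, -0.07 for Lum and 0.05 for Serpinf1.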

How the results depend on the processing

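No paired analysis was possible because each group is 1 library and the labels give no replicate numbers. The alternatives that keep only cells of 8000 to 12000 UMIs, or only cells under 10 fibroblast UMIs, were chosen after seeing the data. The share of Tnnt2+ Igfbp2- cells in SHF_AngII and SHF_Baseline was 16.2% and 43.1% with at least 2 Tnnt2 UMIs, 16.5% and 57.5% with a 5% mitochondrial cap, 22.4% and 42.4% after thinning, and 25.7% and 57.8% at 8000 to 12000 UMIs. In SHF_AngII it was 18.2% with at least 10 Myh11 UMIs and 17.7% under 10 fibroblast UMIs. Against the other smooth muscle cells, a gene minimum of 10 CPM gave 181 genes higher and 71 lower, and one of 100 CPM gave 31 and 21. The mitochondrial cap gave 85 higher, the depth window 29 higher and thinning 66 lower. Against baseline, the minimum of 10 CPM gave 170 and 151, that of 100 CPM 31 and 24, the mitochondrial cap 93 and 140, and totals without mitochondrial and ribosomal protein genes 70 lower. Higher and lower minimums test fewer or more genes by construction (1261 and 6706 against the other smooth muscle cells), and the cause of the other shifts was not tested. Of 312 values of the 24 genes with the highest or lowest ratios in each comparison, 163 and 217 stayed within their counting interval, and 2 changed sign, both against baseline with the 5% mitochondrial cap. Sfrp2, under 2-fold before, was at 0.45. Lum in Tnnt2+ Igfbp2- cells of SHF_AngII over the same gate of SHF_Baseline was at -0.0725 with the 5% mitochondrial cap. Subtracting 5% of free RNA put Dcn at 7.55 against the other smooth muscle cells. The limits are 1 library per group, depths that differ between classes, and gene lists that differ between files.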

Other observations

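Some genes below the minimum level of the comparisons also stood apart in the Tnnt2+ Igfbp2- cells. The chemokine Ccl19 was at 42.3 CPM in these cells, 9.40 CPM in the other smooth muscle cells and 3.76 CPM in the same gate at baseline, with 301 CPM in fibroblasts. Phospholamban (Pln), the brake on the calcium pump of the sarcoplasmic reticulum, was at 22.0 CPM against 9.04 CPM, and at baseline at 32.2 against 28.7 CPM. Igf1 was at 56.1 against 27.1 CPM, with 1086 CPM in fibroblasts. Tenascin C (Tnc) was at 22.7 against 65.1 CPM, with 6.89 and 10.2 CPM at baseline.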
